A study of Mus musculus with 3 samples.

Results

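The untreated sample of the series is a culture of mouse CD8 T cells under Tc1 cytokines, with CD3 and CD28 stimulation and without added cholesterol, and its single array is described here gene by gene. It is 1 of 3 arrays, and the other 2 carry CD8 T cells of the same Tc1 culture with 0.5 or 0.75 µg/ml cholesterol. All 3 groups share the CD3 and CD28 stimulation and the Tc1 cytokines, so no array shows resting or unpolarised cells. The strain, sex and age of the mice, the cytokines and their doses, the length of culture, the number of animals and the purity of the cells are not stated in the labels. Members were all 19505 genes with a symbol on the array, taken from 19572 named transcript probe sets among 28846 probe sets, and each gene was placed by its linear intensity against the 5222 negative-control probe sets of the same array.

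Naive CD8 T cells carry the T cell receptor with the CD8 co-receptor and circulate in a resting state. After stimulation they grow, divide and become cytotoxic T cells, and interleukin-12 and related signals guide them to the Tc1 state, which depends on the transcription factor T-bet. Tc1 cells kill target cells with perforin and granzymes from secretory granules and secrete interferon-gamma and tumour necrosis factor.

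The background level was set at the 95th percentile of the negative controls of the array, an intensity of 102. Genes at or below it were classed as not above background, those up to 4 times it (407) as weak, those up to 16 times it (1629) as intermediate and those over 16 times it as strong. Of the 19505 genes, 7688 (39.4%) lay above background. This share is the one to set beside the counts of members above background in the gene groups below. The strong class held 483 genes (2.48%), the intermediate class 2634 (13.5%) and the weak class 4571 (23.4%), and 11817 genes (60.6%) were not above background. These classes describe each probe set against the array's own background. Probes differ in how well they bind their target, so an order of intensities between genes is an order of probe signal and not of transcript number. Each condition had 1 array, so there is no replicate, no test and no p-value for any value below. In a bulk sample, fewer cells expressing a gene and less RNA per cell cannot be told apart.

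The control probe sets bounded what these classes can show. Negative controls had a median of 13.3 and positive controls a median of 284, with 991 of 1324 positive controls (74.8%) above the background level. By construction 262 of the 5222 negative controls (5.02%) lay above that level. Their 99th percentile was 559, and 24 were in the range of the strong class. A positive control was brighter than a negative control in a share of 0.911 of all pairs. The median of the named genes was 47.4. The 23 antigenomic probe sets, which match no mouse sequence and are sorted by the number of G and C bases in the probe, were at 5.18 to 20.4 with up to 16 such bases and reached 218 at 23, and the 6 with 20 or more lay above the background level, at 115 to 218. Of the 7688 genes above background, 2472 (32.2%) fell between 102 and 218. GC content of the probes was not used here, so its part in the calls of these genes was not tested. At the limits, Brpf3 (101.8) lay just above and Igsf8 (101.8) just below the background level, with Sass6 (407.3) and Eci2 (407.1) beside the limit of the weak class and Cmip (1629.9) and Capza2 (1628.4) beside that of the strong class.

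**Figure D1:**
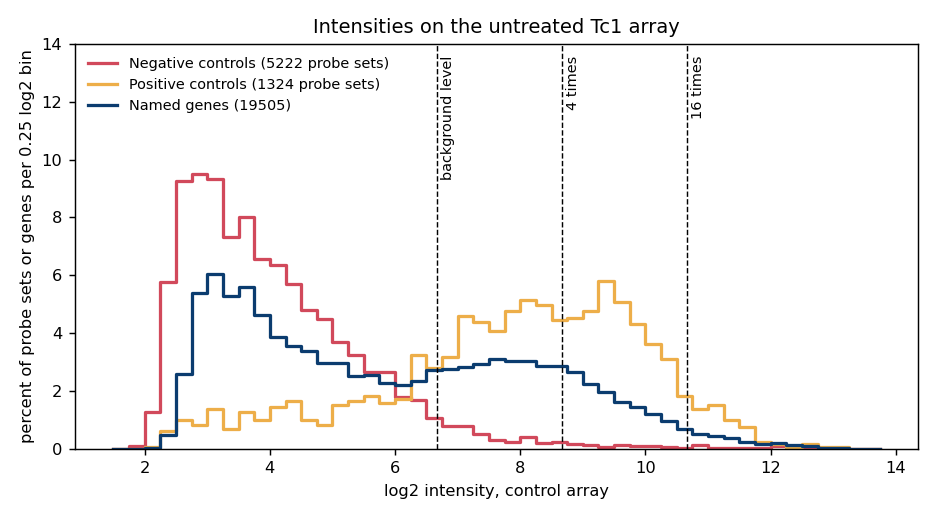
Distribution of log2 intensity on the control array for named genes, negative controls and positive controls, as the percent of each set per bin of 0.25. Dashed lines mark the background level and 4 and 16 times that level. Named genes form a peak that overlaps the negative controls and a broad shoulder above the background level, where most positive controls lie.

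The labelled cell type was checked with Cd8a, Cd3e, Gzmb, Ifng and Tbx21. The co-receptor gene Cd8a was at 4225 on the control array, 4164 at 0.5 µg/ml and 3313 at 0.75 µg/ml cholesterol. Cd3e, which encodes a signalling chain of the T cell receptor complex, was at 4364, 4650.1 and 4594 in the same order. The granzyme gene Gzmb was at 7611, 7741 and 8136. These 3 markers were strong on every array. Ifng, the interferon-gamma gene, was at 333, 346 and 294, and Tbx21, which encodes T-bet, at 240.3, 217 and 227. Both were weak on every array, and on the control array 1.53% and 2.09% of negative controls were brighter than Ifng and Tbx21. Both values of the control array also exceeded every antigenomic probe set, of which the brightest was at 218, although Tbx21 did so by a small margin.

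**Figure D2:**
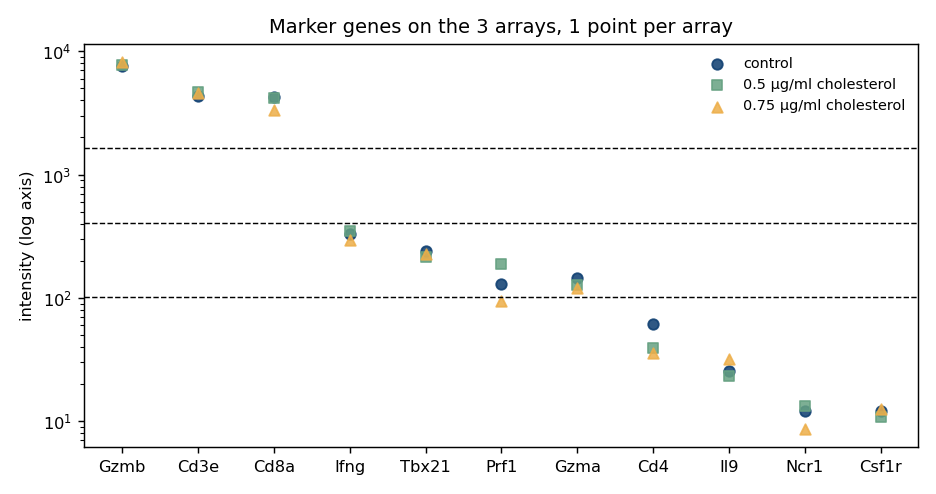
Intensities of the 5 markers of Tc1 CD8 T cells, of Prf1, Gzma and Il9 and of markers of CD4 T cells (Cd4), NK cells (Ncr1) and macrophages (Csf1r), with 1 point per array and a log axis. Dashed lines mark the background level and 4 and 16 times that level of the control array. Gzmb, Cd3e and Cd8a lie above the upper line and Cd4, Il9, Ncr1 and Csf1r below the lower line on all 3 arrays, whereas Prf1 crosses the lower line at 0.75 µg/ml.

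Across the T cell receptor complex and its proximal signalling proteins, all 18 measured genes lay above background, with 7 strong, 8 intermediate and 3 weak, and a median of 1136. Besides Cd3e and Cd8a, the strong genes included the receptor phosphatase gene Ptprc (CD45) at 3745, the signalling gene Themis at 3239.5, the CD3 chain gene Cd3g at 2863 and the second co-receptor chain gene Cd8b1 at 2574. The members nearest to background were the adhesion and signalling receptor gene Cd6 at 403, the regulator gene Ubash3a at 398 and the adaptor gene Skap1 at 349.7, all more than 3 times the background level.

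The cytotoxic granule and death ligand group was uneven. Of 22 measured genes, 17 (77.3%) were above background, 3 of them strong, and the median was 204. The strong members were Gzmb, the granule proteoglycan gene Srgn at 5529 and the granule membrane gene Nkg7 at 2835. Intermediate members included Serpinb6b, an inhibitor of the serpin family, at 1574, the granzyme-activating protease gene Ctsc at 1163 and Rab27a, which docks granules at the membrane, at 1079. The other granzymes were dim. Gzma was at 144 on the control array and at 128 and 120 with 0.5 and 0.75 µg/ml cholesterol, while Gzmm, Gzmg and Gzmk were at 17.6, 13.9 and 10.1, near the median of the negative controls. The perforin gene Prf1 was at 129 on the control array, at 188 at 0.5 µg/ml and at 93.9 at 0.75 µg/ml, so its call was not the same on every array. Of the 22 genes, 10 exceeded the brightest antigenomic probe set, against 5216 (26.7%) of all 19505 genes. Prf1 and Gzma were not among the 10. Granzyme genes are similar in sequence, so a signal may be shared between copies.

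Effector cytokine and chemokine genes were mostly not above background, with 6 of 17 above it, a share of 35.3% against 39.4% of all genes, and a median of 54.5. The strong members were the lymphotoxin genes Ltb at 2304 and Lta at 1831, whose products form membrane-bound and secreted ligands of the tumour necrosis factor family. Tnf was at 856 and the chemokine gene Ccl5 at 665, both intermediate. Ifng was weak, and Cxcl10, an interferon-induced chemokine gene, was at 105 on the control array and at 85.6 and 31.3 with cholesterol. The growth factor gene Il2 was at 15.7, and Ccl1, Cd40lg and Il3 were at 11.8, 9.92 and 9.34, below the negative-control median. The labels do not say whether cells were restimulated before lysis.

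**Figure D3:**
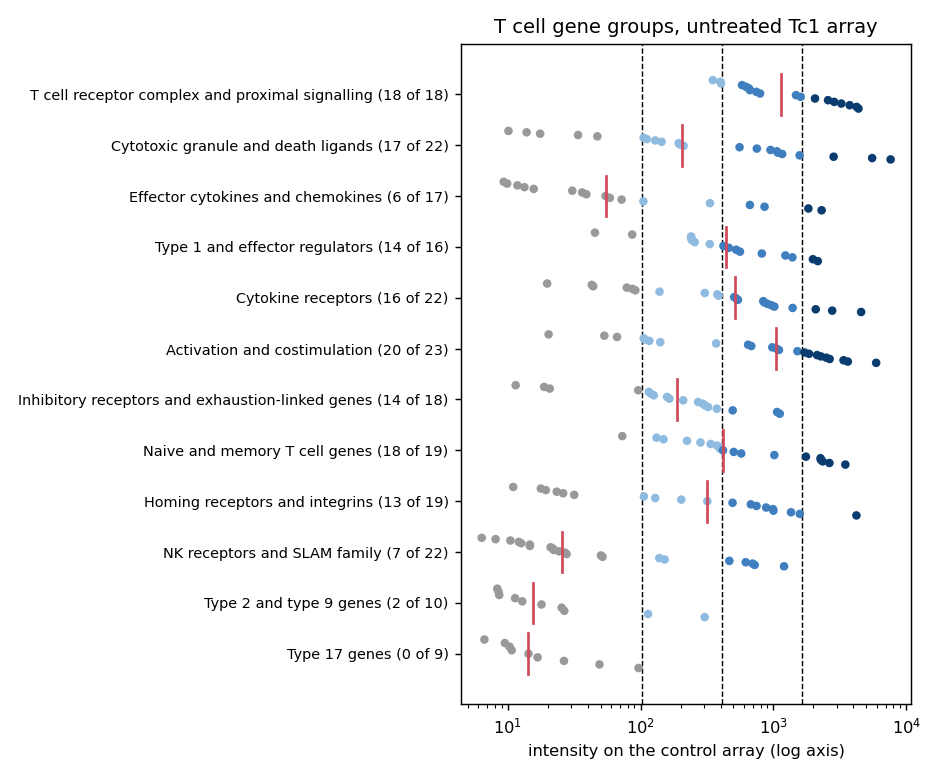
Intensity of each measured member of 12 T cell gene groups on the control array (log axis), with counts above background in brackets, red bars at group medians and dashed lines at the background level and 4 and 16 times it. Points are coloured by class from grey (not above background) to dark blue (strong). All members of the T cell receptor group lie to the right of the first line and all type 17 genes to its left.

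Transcription factors of the type 1 and effector programme were above background in 14 of 16 genes (87.5%), with 2 strong, 7 intermediate and 5 weak. Bhlhe40, a regulator of cytokine production, was at 2157 and Runx3, which maintains CD8 identity and the cytotoxic programme, at 1981. The interferon-responsive gene Irf1 was at 1388, Id2, which restrains E-protein factors, at 1229.8, the activation-induced factor gene Irf4 at 818 and Eomes, a T-box relative of Tbx21, at 559. Only Runx1 (86.5) and Prdm1 (45.4), the gene of the terminal differentiation factor Blimp-1, were not above background.

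Of 22 cytokine receptor genes, 16 (72.7%) were above background, against 39.4% of all genes. Il2rb, the chain shared by the interleukin-2 and interleukin-15 receptors, was at 4568 and Il12rb2, the signalling chain of the interleukin-12 receptor that permits Tc1 differentiation, at 2766, both strong. Il12rb2 was at 2846 and 1382 with 0.5 and 0.75 µg/ml cholesterol. Il4ra was strong at 2079.6, Ifngr1 was at 1394, the interleukin-7 receptor gene Il7r at 1015 and the high-affinity interleukin-2 receptor gene Il2ra at 838. The dimmest were the interleukin-6 receptor gene Il6ra at 44.0, the interleukin-9 receptor gene Il9r at 42.9 and the decoy receptor gene Il1r2 at 19.8.

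Genes of other helper and cytotoxic T cell lineages were largely not above background. Of the 10 type 2 and type 9 genes, 2 were above it, the chemokine receptor gene Ccr4 at 304 and Il13 at 114. Il13 was at 85.5 and 136 with 0.5 and 0.75 µg/ml cholesterol, on both sides of the level. Il9, the cytokine gene of Tc9 cells, was at 25.5 with 27.3% of negative controls brighter, and Il4 was at 8.35. None of the 9 type 17 genes was above background, the nearest being Rora at 96.6, and Il17a was at 49.1. Of 8 regulatory and follicular helper genes, 4 were above background, a share of 50% against 39.4% of all genes. The latent TGF-beta receptor gene Lrrc32 was at 734, Ikzf2 at 418, the SLAM adaptor gene Sh2d1a at 382 and Ikzf4 at 217.0. Pou2af1, Bcl6 and Il21 were at 53.1, 21.5 and 10.1.

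Genes of naive and memory T cells and genes of activation were above background together on this array. Of 19 naive and memory genes, 18 lay above background and 6 were strong. The survival gene Bcl2 was at 3474.5, the lymph node homing receptor gene Ccr7 at 2635, the chromatin organiser gene Satb1 at 2274 and Lef1, a transcription factor of naive and memory-precursor cells, at 1755. Ly6c2 and Ly6c1 were at 2346 and 2260.4, and these genes are near-identical in sequence, so their signals may not be separate. Id3 alone was not above background, at 72.9. Of 23 activation and costimulation genes, 20 were above background and 9 strong. The growth regulator Myc was at 5925, the costimulatory receptor genes Tnfrsf9 (4-1BB), Tnfrsf18 (GITR) and Icos at 3625, 3368 and 2646, and the amino acid transporter genes Slc3a2 and Slc7a5 at 2492 and 2273. The adhesion receptor gene Cd44 was at 1099. Genes of the immediate-early response to stimulation lay on both sides of the background level. Junb, Nr4a3 and Jun were at 1052, 979.8 and 370.4, Nr4a1, Egr3 and Egr2 just above it at 116, 108 and 106, and Egr1, Fosb and Fos not above it at 66.5, 53.4 and 20.3.

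Inhibitory receptors and exhaustion-linked genes were above background in 14 of 18 genes (77.8%), with none strong, 3 intermediate and 11 weak, and a median of 187. The checkpoint receptor genes Ctla4 and Vsir were at 1115 and 1064 and the regulator gene Tox at 493. Lag3 was at 294, and Pdcd1, the PD-1 gene, at 165, between the background level and the brightest antigenomic probe set. Cd244a, Havcr2 (TIM-3) and Cd200r1 were at 20.7, 18.8 and 11.5, not above background. Of the 18 genes, 8 exceeded the brightest antigenomic probe set, against 5216 (26.7%) of all 19505 genes.

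Of 22 NK receptor and SLAM family genes, 7 were above background, a share of 31.8% against 39.4% of all genes. The SLAM receptor genes Slamf7, Slamf1 and Slamf6 were at 1201, 723 and 696, and the SLAM ligand gene Cd48 at 618, all intermediate. The SLAM family gene Cd244a, listed with the inhibitory receptors, was at 20.7. Among the lectin-like NK receptors, the activating receptor gene Klrk1 (NKG2D) was weak, at 152, and so was Klrd1 (CD94), at 138 on the control array and at 297 and 199.9 with 0.5 and 0.75 µg/ml cholesterol. Klrg1, a marker of terminal effector cells, was at 27.1 and Klra2 at 6.38. Homing receptors and integrins were above background in 13 of 19 genes (68.4%). The P-selectin ligand gene Selplg was strong at 4209, the LFA-1 subunit genes Itgal and Itgb2 were at 1579 and 1356, and P-selectin itself, Selp, was at 999. The chemokine receptor genes Cxcr6, Ccr2 and Ccr9 were at 19.4, 17.8 and 11.0.

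**Figure D4:**
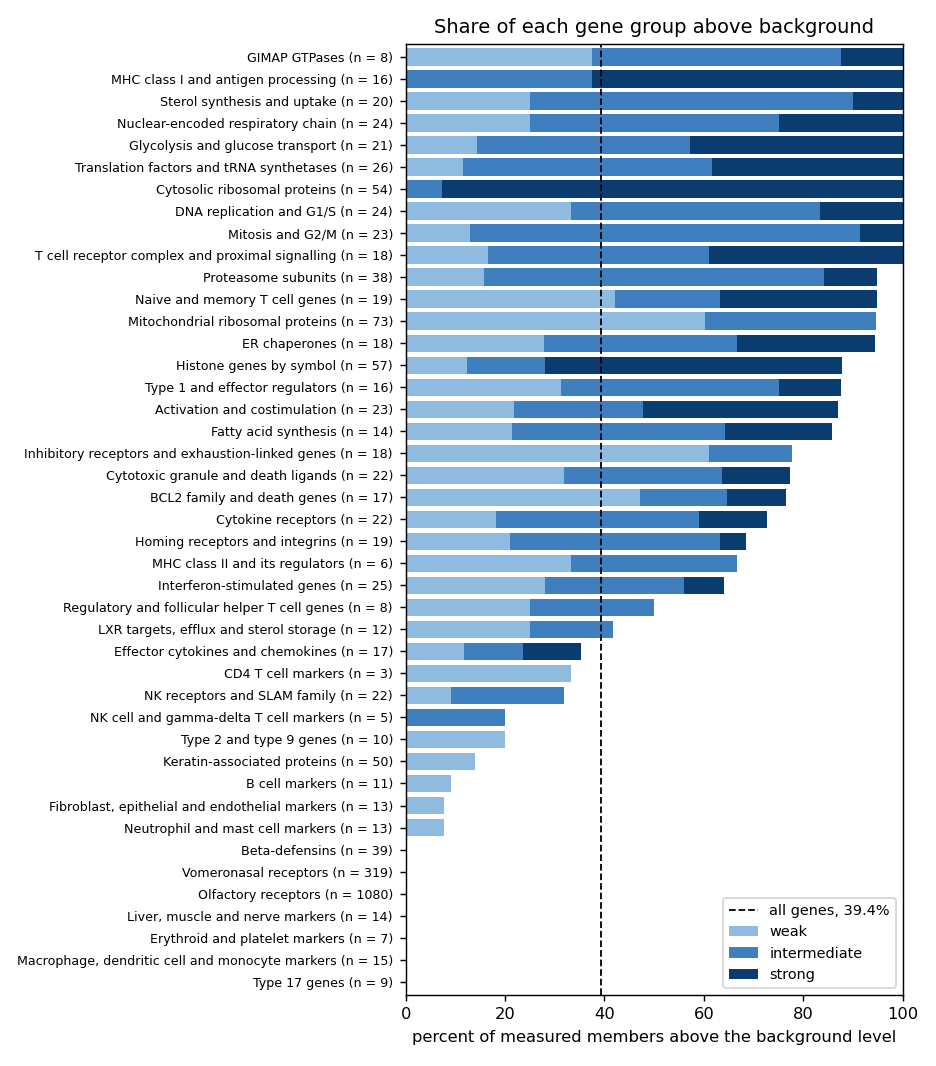
Percent of the measured members of each gene group with an intensity above background in the control culture, divided into weak, intermediate and strong, with the number of members in brackets. The dashed line marks the share over all genes, 39.4%. The mitosis, replication, ribosomal protein, glycolysis and T cell receptor groups reach 100%, and the type 17, myeloid and olfactory receptor groups are at 0.

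The cells carried the transcripts of growth and division. All 23 mitosis genes and all 24 DNA replication genes were above background, with medians of 676 and 757. The proliferation marker gene Mki67 was at 2033, the mitotic ubiquitin ligase gene Ube2c at 1819 and the kinase gene Aurkb at 1474. The polymerase clamp gene Pcna was at 3736, the helicase subunit gene Mcm6 at 2095 and the ribonucleotide reductase gene Rrm2 at 1967. The dimmest members, Cenpf at 192 in the mitosis group and Rfc3 at 162 in the replication group, lay under the brightest antigenomic probe set. Of 57 histone genes chosen by symbol (H1f, H2ac, H2bc, H3c and H4c), 34 were strong and 50 above background. H3c14 and H3c15 had the same intensity, 6437, on the control array and on each cholesterol array, and histone copies are near-identical in sequence, so these signals cannot be assigned to single copies. The dimmest were H1f6, a histone gene of male germ cells, at 18.3, H1f8, the oocyte linker histone gene, at 13.4 and H3c1 at 8.64.

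Translation genes were the largest block of strong genes among the groups examined. All 54 cytosolic ribosomal protein genes were above background and 50 were strong, with a median of 4124, from Rplp1 at 7754 to Rpl27 at 570.4. All 26 translation factor and tRNA synthetase genes were above background, with the elongation factor genes Eef1a1, Eef2 and Eef1b2 at 9297, 8462 and 7325. Mitochondrial ribosomal protein genes were above background in 69 of 73 cases with none strong, and a median of 308. Outside the ribosomal proteins, the 25 brightest protein-coding genes included B2m at 11837, the actin gene Actb at 9528, the interferon-inducible surface protein gene Ly6e at 7871, the lysosomal protein gene Laptm5 at 7558, the actin-binding gene Tmsb4x at 6832, the tubulin gene Tubb5 at 6414 and the intermediate filament gene Vim at 5817. Gzmb and Myc were also among these 25.

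Of 38 proteasome subunit genes 36 were above background, and the 2 below were paralogs of other tissues. The immunoproteasome genes Psmb8 and Psmb9 were at 2455 and 1587, whereas Psma8, a germ cell subunit gene, was at 11.6 and Psmb11, the subunit gene of the thymic cortical epithelium, at 11.3. In MHC class I antigen presentation, all 16 genes were above background and 10 strong. The light chain gene B2m was at 11837, the proteasome activator gene Psme1 at 5082, the chaperone gene Calr at 4346, the heavy chain gene H2-K1 at 4019 and the peptide transporter gene Tap1 at 2288. MHC class II was dimmer, with 4 of 6 genes (66.7%) above background and none strong. Of these, 2 were intermediate and 2 weak, with H2-DMa the brightest at 466. H2-Ab1 was at 266 on the control array and at 285 and 83.4 with 0.5 and 0.75 µg/ml cholesterol. H2-Aa at 79.9 and the class II transactivator gene Ciita at 25.9 were not above background.

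Energy metabolism genes were above background throughout. All 21 glycolysis genes lay above it and 9 were strong, among them Gapdh at 7031, Pkm at 5579, Aldoa at 5495, the lactate dehydrogenase gene Ldha at 3626 and Pgk1 at 3248. The paralogs Eno3, Ldhb and Pfkm, which are typical of muscle or heart, were at 258, 168 and 134. All 24 nuclear-encoded respiratory chain genes were above background, with Cox7c at 5631, Atp5b at 3972 and Atp5a1 at 3746.

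In the culture without added cholesterol, all 20 measured sterol synthesis and uptake genes were above background, with a median of 707. Srebf2, which encodes the transcription factor SREBP2, was strong at 2759, as was Hmgcs1 at 1848, and the squalene synthase gene Fdft1 was at 1618. The dimmest were Hsd17b7 at 321, Pmvk at 216 and the mevalonate kinase gene Mvk at 155. Of 12 genes of LXR, its targets and sterol storage, 5 were above background, a share of 41.7% that is near the 39.4% of all genes. The phospholipid remodelling gene Lpcat3 was at 1449.9 and Npc2, which carries cholesterol out of lysosomes, at 596, while the receptor partner gene Rxra was at 36.0 and the exporter gene Abca1 at 16.5, with 41.5% of negative controls brighter. The exporter gene Abcg1 was weak, at 135 on the control array and at 280 and 431 with 0.5 and 0.75 µg/ml cholesterol. Abca1 was at 32.6 and 162 with 0.5 and 0.75 µg/ml cholesterol. Fatty acid synthesis genes were above background in 12 of 14 cases, with the elongase genes Elovl5 and Elovl1 at 2192 and 1893, and the desaturase gene Scd3 and the malic enzyme gene Me1 at 24.5 and 11.1.

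Of 25 interferon-stimulated genes, 16 (64%) were above background. The guanylate-binding protein gene Gbp2, which interferon-gamma induces, was at 1869.8 and the tetherin gene Bst2 at 1845, both strong, and Isg20 was at 1130.4. The antiviral genes Oas2, Oas1a and Oasl1 were at 47.3, 45.9 and 20.5. The endoplasmic reticulum chaperone group had 17 of 18 genes above background, led by Calr, Hspa5 at 3633, Hsp90b1 at 2406 and Xbp1 at 2125. In the BCL2 family and death gene group 13 of 17 (76.5%) were above background, with Bcl2 at 3474.5, the initiator caspase gene Casp8 at 2850.1 and Mcl1 at 1207. All 8 GIMAP GTPase genes, which support lymphocyte survival, were above background, from Gimap4 at 2606 to Gimap5 at 140.0.

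Markers of other cell types were mostly not above background. The 6 lists covered B cells, myeloid cells, granulocytes and mast cells, erythroid cells and platelets, structural cells and organs. Of their 73 genes, 3 were above background, against 39.4% of all genes, and none was strong. The median was 18.5. Those above were the B cell receptor chain gene Cd79b at 111, the stem cell factor receptor gene Kit at 133 and Pecam1, an adhesion gene that T cells can also express, at 224. Kit was at 88.3 and 42.4 with 0.5 and 0.75 µg/ml cholesterol. List medians ran from 13.1 in the macrophage, dendritic cell and monocyte list to 48.8 in the erythroid and platelet list. The latter was near the 47.4 of all named genes, though none of its 7 genes was above background. None of the 15 macrophage, dendritic cell and monocyte markers was above background, with Csf1r at 12.2 and the summed intensity of the 15 at 246, 249 and 258 on the control array and at 0.5 and 0.75 µg/ml. Cd79a and Ms4a1 were at 22.6 and 11.7. The 4 of 6 MHC class II genes above background, with H2-DMa at 466 and H2-Ab1 at 266 among them, were not in these lists. Cd4 was at 61.6, not above background, while Zbtb7b, the factor of CD4 commitment, was at 178. The NK cell receptor genes Ncr1 and Klrb1c were at 12.1 and 10.5, and Eomes is shared by NK cells and CD8 effector cells. Receptor families of sensory neurons gave a second background, from probe sets other than the negative controls. None of 1080 olfactory receptor genes lay above the background level, the brightest being Olfr311 at 50.3, and none of 319 vomeronasal receptor genes did so. Of 50 keratin-associated protein genes, 7 did, up to 159 for Krtap4-8, and none of these exceeded the brightest antigenomic probe set. The 95th percentile of the olfactory receptor genes was lower than the background level, at 20.5, and 12564 of the 19505 genes lay above it. Above 20.5 lay 5 of 11 B cell, 2 of 15 myeloid and 4 of 13 granulocyte and mast cell markers. So did 5 of 7 erythroid and platelet, 6 of 13 structural cell and 9 of 14 organ markers. Cd4 exceeded every olfactory receptor gene.

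The classes on the other arrays showed how far they rest on this array. Among the 7688 genes above background, 7355 (95.7%) were also above the background levels of both cholesterol arrays, which were 98.3 and 101. The arrays had near-identical distributions as deposited, with at most 0.17 log2 between values of equal rank, and 17 of the 23 antigenomic probe sets had the same value on all 3 arrays. The part of the processing before deposit in this agreement was not tested. The remaining 333 genes, 4.33%, included 328 weak genes and had a median of 1.13 times the background level. All 483 strong genes were above background on every array and 442 (91.5%) were strong on every array. Among the 20 sterol synthesis genes 5 were not above background on every array, and among the 16 interferon-stimulated genes above it on the control array 5 were not. The former were Mvk, Fdps, Sqle, Msmo1 and Hsd17b7, the latter Irf7, Ifit2, Ifit3, Ifit3b and Oasl2, and each was above the background level at 0.5 µg/ml and below it at 0.75 µg/ml. At 0.75 µg/ml Hsd17b7 and Irf7 were close to the level of 100.6, at 100.3 and 95.7. With 1 array per condition, array spread and an effect of cholesterol cannot be told apart.

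Promoter sequence differed between the classes and between gene groups, whose members lie in several classes. RefSeq promoters of the assembly GRCm38.p6 (250 bases before to 50 after the annotated start, the first listed per gene) matched 15488 of 19107 protein-coding genes (81.1%). CpG dinucleotides are depleted in most of the genome and kept in the promoters of many widely expressed genes. The median number of CpG per 300-base promoter was 7 in genes not above background, 21 in weak, 23 in intermediate and 21 in strong genes, and the median ratio of observed to expected CpG was 0.349, 0.792, 0.814 and 0.807. A ratio over 0.6 was found in 31.6%, 78.1%, 79.5% and 74.4% of these genes. Without olfactory and vomeronasal receptors the genes not above background had a median ratio of 0.427. The medians of the 3 classes above background lay between 0.792 and 0.814. Medians of the gene groups named here, each of far fewer promoters than a class, spanned a wider range. The median ratio was 0.851 in ribosomal protein, 0.916 in DNA replication and 0.940 in mitosis genes, against 0.285 in cytotoxic granule, 0.204 in T cell receptor and 0.291 in interferon-stimulated genes. Histone, MHC class I and effector cytokine genes lay between, at 0.715, 0.562 and 0.321. These are descriptions of the annotated starts with no test, and genes of a family share ancestry. The median promoter GC content was 53% in genes not above background and 61%, 61.7% and 60% in weak, intermediate and strong genes. Antigenomic probe sets rich in G and C bases were also the brighter ones. Probe GC content was not used, so its part in the class differences, here and in the motifs below, was not tested.

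**Figure D5:**
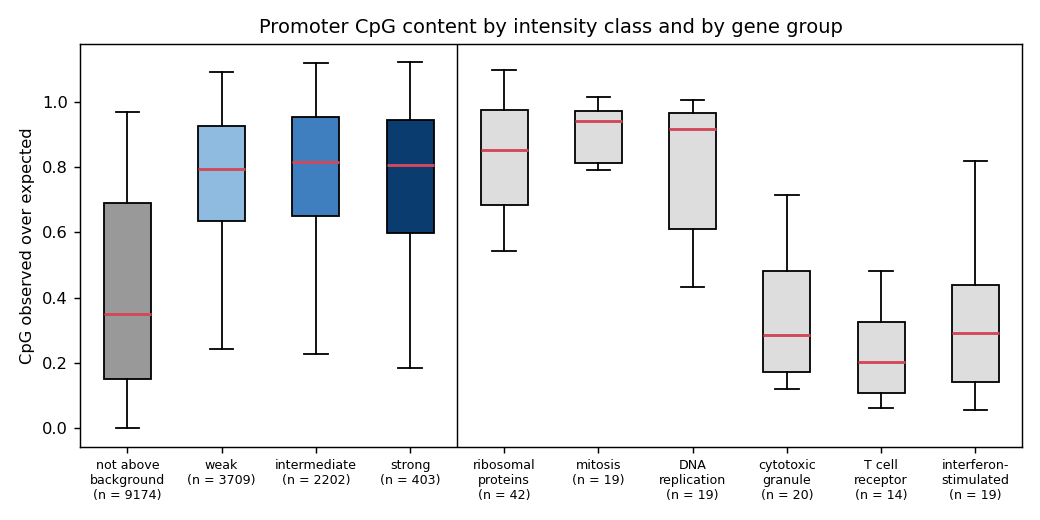
Ratio of observed to expected CpG in 300-base RefSeq promoters of protein-coding genes, by intensity class on the control array (left) and for 6 gene groups (right), with the number of genes below each box. Boxes span the quartiles, red lines are medians and whiskers reach the 5th and 95th percentiles. Genes not above background have a lower median ratio (0.349) than the other classes, and cytotoxic granule, T cell receptor and interferon-stimulated genes have medians under 0.3.

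The contrast is shown with 4 promoters of strong genes and 1 of a gene not above background, each printed 5′ to 3′ on its own strand in lower case with every CpG in capitals. Eef1a1 at chr9:78481675-78481974 (minus strand) held 22 CpG and Pcna at chr2:132253131-132253430 (minus strand) 26. Gzmb at chr14:56262285-56262584 (minus strand) held 2 and Cd8a at chr6:71373177-71373476 (plus strand) 3. The liver gene Alb, at an intensity of 14.1, lies at chr5:90460620-90460919 (plus strand) and held 3. Few CpG were thus found in Gzmb and Cd8a and in a gene not above background alike. The promoters of the strong genes Ptprc and Cd3e, not printed here, held 4 and 8.
Eef1a1: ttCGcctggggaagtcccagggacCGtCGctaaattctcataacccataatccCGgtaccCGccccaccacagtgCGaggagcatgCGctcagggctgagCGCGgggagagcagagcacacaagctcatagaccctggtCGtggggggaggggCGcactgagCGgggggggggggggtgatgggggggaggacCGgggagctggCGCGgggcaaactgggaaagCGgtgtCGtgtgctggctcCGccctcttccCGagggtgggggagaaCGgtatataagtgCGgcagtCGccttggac
Pcna: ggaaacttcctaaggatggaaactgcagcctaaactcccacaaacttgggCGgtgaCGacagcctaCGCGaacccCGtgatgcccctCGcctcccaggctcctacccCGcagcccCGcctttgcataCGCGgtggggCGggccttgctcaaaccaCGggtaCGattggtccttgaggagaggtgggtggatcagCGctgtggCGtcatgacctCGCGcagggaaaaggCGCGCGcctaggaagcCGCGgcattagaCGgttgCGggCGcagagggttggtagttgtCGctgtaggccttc
Gzmb: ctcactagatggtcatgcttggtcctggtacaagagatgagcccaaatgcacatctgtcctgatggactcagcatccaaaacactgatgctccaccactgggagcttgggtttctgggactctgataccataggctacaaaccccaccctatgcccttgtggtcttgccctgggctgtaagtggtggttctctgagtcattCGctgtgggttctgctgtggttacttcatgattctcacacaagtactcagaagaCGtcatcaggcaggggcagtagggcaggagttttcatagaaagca
Cd8a: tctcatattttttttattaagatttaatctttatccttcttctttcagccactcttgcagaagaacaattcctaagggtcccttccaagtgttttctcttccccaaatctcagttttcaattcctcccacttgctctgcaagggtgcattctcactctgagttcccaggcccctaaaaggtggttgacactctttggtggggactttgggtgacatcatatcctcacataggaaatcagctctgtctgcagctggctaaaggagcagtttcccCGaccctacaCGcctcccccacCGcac
Alb: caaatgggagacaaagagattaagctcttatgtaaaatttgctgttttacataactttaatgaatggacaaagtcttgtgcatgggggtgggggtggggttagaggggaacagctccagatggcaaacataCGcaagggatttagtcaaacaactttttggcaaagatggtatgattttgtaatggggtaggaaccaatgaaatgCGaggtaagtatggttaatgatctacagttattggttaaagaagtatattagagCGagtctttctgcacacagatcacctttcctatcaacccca

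Short motifs were searched on both strands of the same windows. The CCAAT box (CCAAT) was present in 84.2% of 19 mitosis promoters, 82.7% of 52 histone promoters, 64.3% of 14 MHC class I promoters and 63.2% of 19 DNA replication promoters, against 38.8% of all protein-coding genes matched. The TATA box (TATAAA) was present in 53.8% of histone promoters, 41.3% of 921 olfactory receptor promoters, 38.5% of 13 effector cytokine promoters and 35.7% of the MHC class I promoters, against 13.2% of all. The GC box (GGGCGG) was present in 35.9% of genes not above background and in 66.5%, 67.8% and 61.3% of weak, intermediate and strong genes, and it contains a CpG and so overlaps with the measure above. An ETS-type motif (CCGGAAG), which also contains a CpG, was found in 42.9% of 42 ribosomal protein promoters, against 12.3% of all. It was found in 26.3% of the mitosis and of the DNA replication promoters, whose genes were all above background. By class the share was 5.58% in genes not above background and 22.0%, 22.8% and 17.6% in weak, intermediate and strong genes. A core of the interferon-stimulated response element (GAAA, any 2 bases, GAAA) was found in 68.4% of 19 interferon-stimulated gene promoters, 28.6% of the MHC class I, 15% of 20 cytotoxic granule and 14.3% of the ribosomal protein promoters, against 3.42% of all. A match is a run of letters and not a bound site.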

How the data were processed

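Total RNA (Trizol) was biotin-labelled for whole-transcript arrays, per the labels. The deposited values are linear intensities, 1 for each probe set of an array, as their range shows. How the authors corrected and normalized them is not given in the sources here. Probe sets were named through the platform annotation, with 19572 of 22206 transcript probe sets named and 2634 unnamed, and all 19505 genes matched RefSeq (GRCm38.p6). For the 55 genes with several probe sets the brightest on the control array was used. No further normalization was applied. Each gene was classed against the 95th percentile of the negative controls of its array, with limits at 4 and 16 times it. With 1 array per condition there is no test, and precision is limited by that number. Alternatives were other background levels, other probe set rules, other limits and all transcript probe sets.

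The members and the 47 gene lists were chosen with earlier results of these data known. Of the lists, 3 of antigen receptor V segments had no measured member. Some genes of the lists and of the fixed set are not reported here. Named genes were the 25 brightest outside ribosomal proteins and predicted genes, up to 6 brightest and 3 dimmest members of each list, genes at the class limits and a fixed set; others were picked after their values were seen. Python 3.11.15 was used with pandas 2.3.3, scipy 1.17.1, numpy 2.4.6 and matplotlib 3.10.9.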

Additional observations from a re-analysis of the deposited data

How the results depend on the processing

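The counts depended on the background level. With the 99th percentile of the negative controls (559), 2186 genes were above background, 1892 weak, 291 intermediate and 3 strong. With the 95th percentile of the olfactory receptor genes (20.5), 12564 were above background, 4514 intermediate and 3811 strong. With the median plus 3 scaled median absolute deviations (185), 1399 were intermediate and 169 strong, and with the 90th percentile (60.6) 1103 were strong. With the brightest antigenomic probe set (218), chosen after seeing the data, 5216 were above background, 1141 intermediate and 129 strong. A limit of 8 or 32 times the background level gave 1386 or 144 strong genes. Of 44 gene lists, 28 had a larger share above background than all genes, and 28 to 32 under the alternatives tried. The number of members above background moved by over 1.5 times in 25 lists with the 99th percentile and in 18 with the olfactory receptor level. It moved in 9 lists with the 90th percentile, in 9 with the brightest antigenomic probe set and in 7 with the median-based level. With another probe set rule it moved in 0 lists. No paired analysis was possible because each group has 1 array.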

Other observations

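Of the 2634 transcript probe sets without a gene name, 766 (29.1%) lay above the background level and 110 were strong, up to 9600.4, so a share of the bright signal on the array belongs to transcripts that are not named here. Among gene biotypes, 27 of 243 long non-coding RNA genes (11.1%) were above background, with a median of 19.0, against 7630 of 19107 protein-coding genes (39.9%), and 27 of 139 transcribed pseudogenes (19.4%) were. The Y-linked genes Eif2s3y and Uty were at 506 and 166, above background, and Kdm5d was at 48.0, and the labels do not give the sex of the mice. Of the 5222 negative controls 24 were in the strong range, up to 8052.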
